A study of Mus musculus with 16 samples.

Results

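The genes examined here encode acute phase proteins of the liver. They are the serum amyloid A genes Saa1, Saa2, Saa3 and Saa4, the orosomucoid genes Orm1, Orm2 and Orm3, haptoglobin (Hp), serum amyloid P component (Apcs) and lipocalin 2 (Lcn2). A region of open chromatin was counted as theirs where it overlapped 1 of these 10 genes or the 20 kb on either side, in mouse genome build mm9. This gave 22 regions of 51482 in all, where a region is the union of DNase I hypersensitive peaks from the groups of the study that overlap by at least 1 bp. The genes lie at 5 loci, and the regions are named by locus and numbered along the plus strand: Saa 1 to Saa 5 on chromosome 7, Orm 1 to Orm 6 on chromosome 4, Hp 1 to Hp 6 on chromosome 8, Apcs 1 on chromosome 1, and Lcn2 1 to Lcn2 4 on chromosome 2.

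The study asked which regulatory elements of mouse liver differ between the sexes and between strains, here C57BL/6J (B6), the usual inbred laboratory mouse, and CAST/EiJ (CAST), which was inbred from wild-caught animals. Liver nuclei of mice labelled as 8 weeks old were digested with 32 units of DNase I, an enzyme that cuts DNA where it is not protected by nucleosomes, and the released fragments were sequenced (DNase-seq). The 4 groups were Male B6, Female B6, Male CAST and Female CAST, with 4 libraries each, or 16 in all, and the labels name neither a transgene nor a treatment of the animals. Each group is represented by 1 list of peaks called on its 4 libraries merged, so there is no spread between replicates, no test was possible, and a difference between lists is given as a difference between those lists.

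Acute phase proteins are plasma proteins whose synthesis in hepatocytes changes during infection or injury. In textbook accounts interleukin-6 acts through STAT3, interleukin-1 and tumour necrosis factor act through NF-kB, and C/EBP factors and the glucocorticoid receptor add to the induction of many of these genes. The labels name no inflammatory stimulus, so the values given here describe these loci in livers with none stated.

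The lists held between 24888 and 39562 peaks, and the male lists (38751 in B6 and 39562 in CAST) held more than the female lists (26271 and 24888). The pileup of reads at the median summit was between 47 in Female CAST and 76 in Male B6, which sets the precision of each value, and intervals given here cover counting error only. Fold enrichment, the measure used throughout, is the summit pileup plus 1 over the local background plus 1, and it was set separately in each list. Its median over the regions found in all 4 lists was 5.35 for male and 3.88 for female B6 and 5.80 for male and 4.66 for female CAST, so levels as deposited differ between lists in general, and a scaled value is the fold enrichment divided by this median. Of 10 hepatocyte markers 8 had a peak within 1 kb of the start in all 4 lists (Apoa1 in 2 lists and Serpina1a, 1 of a family of near-identical copies, in none), against 0 of 10 Kupffer cell and macrophage markers, 0 of 10 neutrophil markers, 1 of 8 sinusoidal endothelial markers (Stab2), 1 of 8 stellate cell and bile duct markers (Sox9) and 0 of 8 brain and muscle genes. In the same order of these last 5 sets, 10, 9, 1, 6 and 8 genes had no such peak in any list. Most endothelial markers thus had a peak there in at least 1 list.

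The sequences on which the description of the promoters and of 2 regions rests were read from mm9. They are shown so that matches to the motif letters searched, and the near-identity of the duplicated genes, can be seen. Capitals mark exact matches, on either strand, to the letters of C/EBP (TTGCNNAA), NF-kB (GGNNTTTCC), STAT (TTCNNNGAA), HNF1 (GTTAATNAT), HNF4 (CAAAGTCCA), FOXA (TGTTTAC) or the glucocorticoid receptor (ACANNNTGT), and no matches of different motifs overlapped in these stretches. The first group gives the 200 bases before the annotated start, on the strand of the gene, for Saa1 (chr7:53998351-53998550, minus strand), Saa2 (chr7:54007003-54007202, plus), Saa3 (chr7:53971047-53971246, minus), Orm1 (chr4:63005394-63005593, plus), Orm3 (chr4:63016996-63017195, plus), Orm2 (chr4:63023283-63023482, plus) and Lcn2 (chr2:32243318-32243517, minus).
Saa1 promoter: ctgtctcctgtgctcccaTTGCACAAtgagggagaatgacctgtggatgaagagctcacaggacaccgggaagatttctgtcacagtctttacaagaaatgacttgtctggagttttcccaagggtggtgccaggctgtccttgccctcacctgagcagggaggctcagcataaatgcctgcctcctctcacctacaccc
Saa2 promoter: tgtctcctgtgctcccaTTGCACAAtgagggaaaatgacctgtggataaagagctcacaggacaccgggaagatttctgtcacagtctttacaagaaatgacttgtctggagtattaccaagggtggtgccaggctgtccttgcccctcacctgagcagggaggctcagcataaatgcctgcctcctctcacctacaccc
Saa3 promoter: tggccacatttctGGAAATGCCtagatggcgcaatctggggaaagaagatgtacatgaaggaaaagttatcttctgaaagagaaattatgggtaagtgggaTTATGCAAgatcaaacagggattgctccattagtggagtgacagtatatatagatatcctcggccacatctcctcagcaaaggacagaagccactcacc
Orm1 promoter: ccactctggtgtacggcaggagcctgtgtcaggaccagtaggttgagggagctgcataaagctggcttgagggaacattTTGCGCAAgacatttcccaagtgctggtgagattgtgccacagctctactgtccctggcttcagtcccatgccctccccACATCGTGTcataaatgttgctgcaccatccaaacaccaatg
Orm3 promoter: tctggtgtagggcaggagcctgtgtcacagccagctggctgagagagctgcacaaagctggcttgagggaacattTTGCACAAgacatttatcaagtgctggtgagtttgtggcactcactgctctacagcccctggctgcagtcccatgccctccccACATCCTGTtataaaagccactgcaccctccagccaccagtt
Orm2 promoter: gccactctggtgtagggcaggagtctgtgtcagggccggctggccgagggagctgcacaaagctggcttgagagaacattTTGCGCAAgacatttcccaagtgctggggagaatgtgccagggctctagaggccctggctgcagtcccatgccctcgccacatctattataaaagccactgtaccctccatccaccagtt
Lcn2 promoter: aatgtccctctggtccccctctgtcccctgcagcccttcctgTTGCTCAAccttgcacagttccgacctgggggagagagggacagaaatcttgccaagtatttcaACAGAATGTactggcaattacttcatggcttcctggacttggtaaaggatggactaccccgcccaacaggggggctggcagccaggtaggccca

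The second group gives 300 bases around the summit, on the plus strand, of 2 regions that differed between lists, Orm 1 (chr4:62999753-63000052) and Saa 4 (chr7:53994054-53994353).
Orm 1 summit: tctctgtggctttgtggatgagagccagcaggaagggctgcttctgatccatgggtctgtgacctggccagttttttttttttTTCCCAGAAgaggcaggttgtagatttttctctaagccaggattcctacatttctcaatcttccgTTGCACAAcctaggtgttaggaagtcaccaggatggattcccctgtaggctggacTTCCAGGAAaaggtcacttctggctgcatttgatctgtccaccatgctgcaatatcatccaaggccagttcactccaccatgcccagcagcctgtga
Saa 4 summit: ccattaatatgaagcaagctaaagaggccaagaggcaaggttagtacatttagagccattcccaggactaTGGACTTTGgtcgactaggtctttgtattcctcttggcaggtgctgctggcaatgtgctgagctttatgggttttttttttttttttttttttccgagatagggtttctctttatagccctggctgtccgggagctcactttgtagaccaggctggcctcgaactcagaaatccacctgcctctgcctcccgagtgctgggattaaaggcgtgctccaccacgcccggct

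Of the 22 regions, 12 were found in all 4 lists (54.5%, Wilson 95% interval 34.7 to 73.1), against 35.6% of all regions of the series. At the other end, 5 were found in 1 list, 22.7% against 35.2% of all regions. In B6 males 19 of the 22 had a peak and in B6 females 16, and in CAST males 17 and in CAST females 13. Of all 51482 regions, 38392, 25718, 39235 and 24355 had a peak in these lists, in the same order, so the female lists held fewer regions in general. The loci differed in this respect: 4 of 5 regions were found in all 4 lists at Saa, 4 of 6 at Hp, 2 of 4 at Lcn2 and the single region at Apcs, but 1 of 6 at Orm. For 15 of the regions a member gene had the nearest start site, and 7 of these 15 were found in all 4 lists. The other 7 lay nearest to the start of another gene, and 5 of them were found in all 4 lists: Lcn2 1, Lcn2 3, Saa 1 and Hp 1, which cover the starts of 1110008P14Rik, Ptges2, Saal1 and Dhx38, and Hp 6, which is nearer to the start of Dhodh than to that of Hp. The region nearest to the limit of the window was Lcn2 4, 16.9 kb from Lcn2 and found in Male CAST at a fold enrichment of 2.11, and the first region beyond it lay 20.7 kb from Lcn2, with values of 4.21 and 2.92 in male and female B6 and 4.15 and 4.32 in male and female CAST. The first region outside the window at Orm, 33.7 kb away, had a peak in both CAST lists, at 9.67 in males and 7.50 in females, and in neither B6 list.

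**Figure D1:**
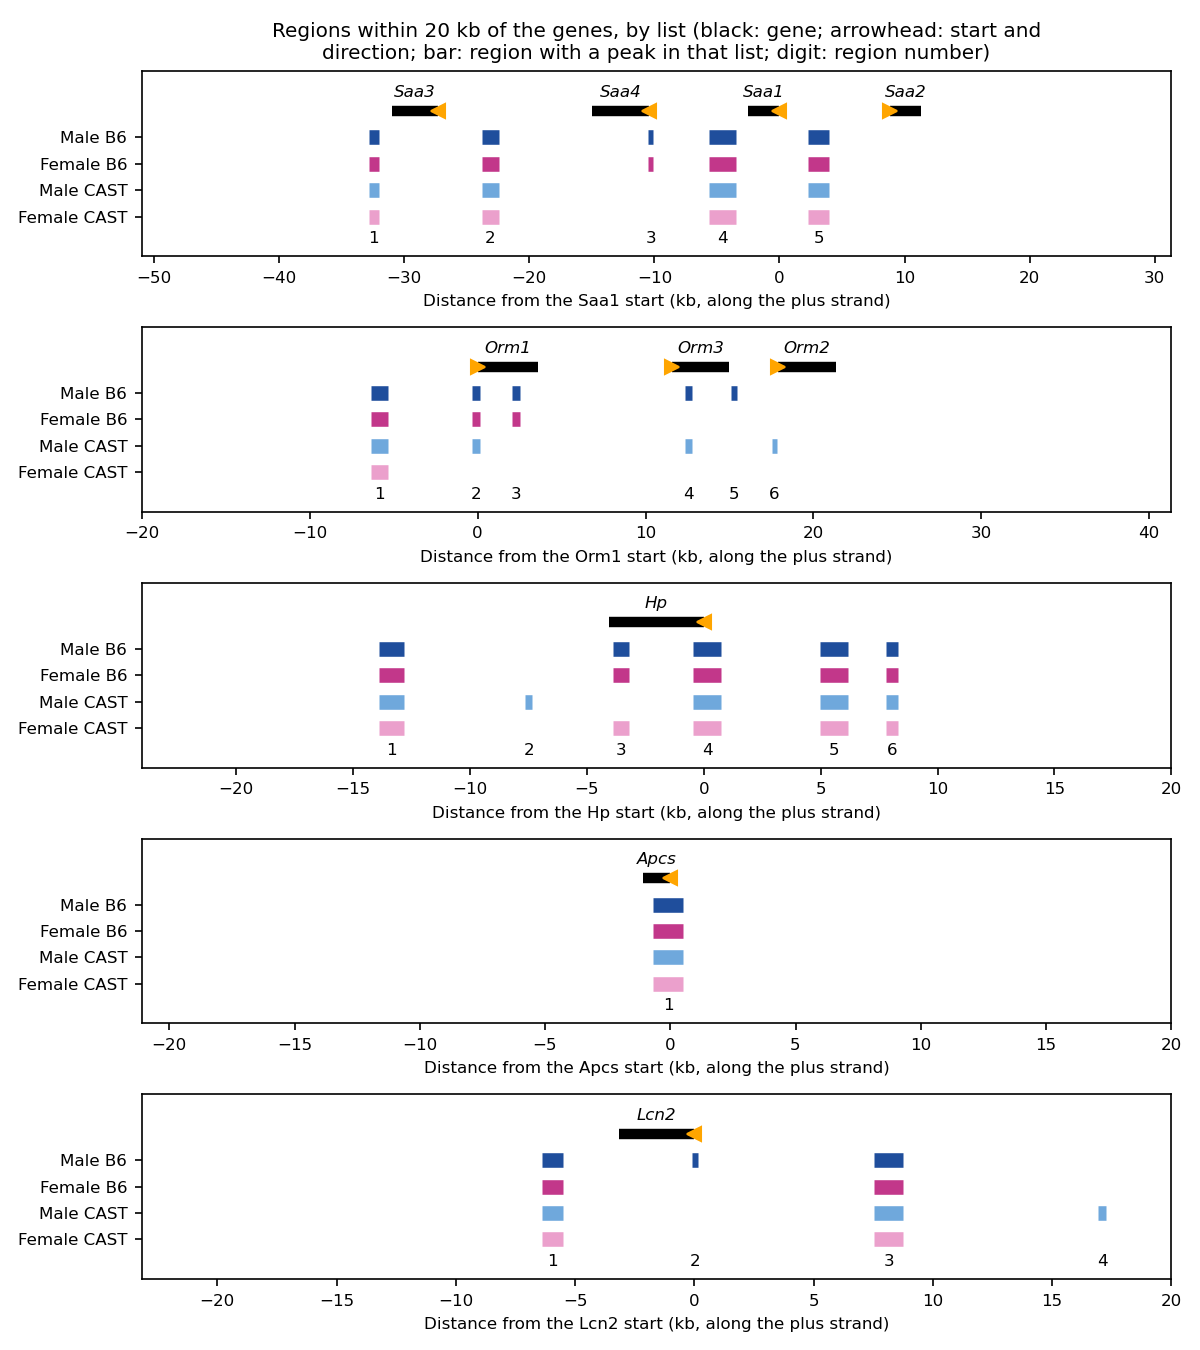
Positions of the 22 regions (coloured bars, drawn at the extent of the joined region wherever that list has a peak in it) in kb from the start of Saa1, Orm1, Hp, Apcs or Lcn2, with 1 row per list and the genes as black bars with an arrowhead at the start. The Saa, Hp and Apcs rows are nearly the same in every list, with 4, 4 and 1 regions in all 4 lists, while at Orm 1 of 6 regions is found in every list.

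At most of these genes the promoter lacked a peak in at least 1 list. A region within 1 kb of the annotated start was found in all 4 lists for 2 of the 10 genes, Hp and Apcs (Wilson 95% interval 5.67% to 51.0%), against 42.4% of 22380 protein-coding genes, a share within that interval. In at least 1 list 7 of the 10 genes had such a region, against 54.2% of protein-coding genes. For Orm1 it was found in 3 lists, for Orm3 and Saa4 in 2, for Orm2 and Lcn2 in 1, and for Saa1, Saa2 and Saa3 in none. With the limit set at 2.5 kb the count was 3 genes, Saa1 being added, against 44.0% of genes. The genes nonetheless had neighbouring regions: the number within 20 kb ranged from 1 for Apcs to 6 for Orm1, Orm3 and Hp, where the median protein-coding gene had 2 and 25.1% had none.

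The serum amyloid A genes encode small apolipoproteins of high-density lipoprotein, of which Saa1 and Saa2 are the main inducible forms in liver, Saa3 is also made in macrophages and adipocytes, and Saa4 is expressed constitutively. Their locus had strong regions between the genes and weak or absent peaks at the starts. The highest mean enrichment belonged to Saa 2 (chr7:53974587-53975896), intergenic, with its summit 4.13 kb upstream of Saa3. Its fold enrichment was 10.26 in male and 5.74 in female B6 and 10.30 in male and 6.96 in female CAST. In percentile ranks within each list it stood between 85.1 in Female CAST and 95.9 in Male B6, so it was among the stronger regions of every list.

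Saa 5 (chr7:54000607-54002350), in the intergenic stretch between the diverging starts of Saa1 and Saa2 and 3.35 kb upstream of Saa1, was at 7.46 in male and 6.20 in female B6 and 5.55 in male and 5.43 in female CAST, and in Female B6 it was above Saa 2. Both B6 values were above both CAST values. Saa 4 (chr7:53992686-53994902), the widest of the regions at 2217 bp, lay beyond the 3' end of Saa1, with its summit 4.15 kb from the Saa1 start. It was at 7.20 in male and 5.25 in female B6 and 4.14 in male and 2.93 in female CAST, and in both female lists it was split into 2 peaks. At both regions the scaled values of both B6 lists were likewise above those of both CAST lists.

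The starts of the serum amyloid A genes themselves gave little. Saa 3 (chr7:53987848-53988250), at the Saa4 start, had a peak in the B6 lists, at 2.25 in males and 2.55 in females, and none in either CAST list. No list had a peak within 1 kb of the Saa1, Saa2 or Saa3 start. Reads were kept where they mapped to 1 place, and the duplicated genes limit such reads: within 1 kb of the start, 26.1% of the 50-base stretches at Saa1 and 24.9% at Saa2 occur elsewhere in mm9, against 0% at Saa3 and 2.1% at Saa4. The 300 bases around the start (250 before and 50 after) were 95.3% identical between Saa1 and Saa2 and 54.1% between Saa1 and Saa3. The part of repeated sequence in the missing peaks was not tested. The remaining region, Saa 1, covers the start of the neighbouring gene Saal1 and ranged from 2.91 in Female CAST to 5.25 in Male B6.

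The orosomucoid genes encode alpha-1-acid glycoprotein, a plasma carrier of basic drugs and lipids. Orm 1 (chr4:62999268-63000235), intergenic and 5.69 kb upstream of Orm1, was the only region of this locus in all 4 lists. It was at 5.54 in male and 5.83 in female B6 and 8.03 in male and 3.36 in female CAST, with summit pileups of 93, 86, 141 and 29. As deposited, Male CAST was highest and Female CAST lowest, whereas the scaled values were 1.03 for male and 1.5 for female B6 and 1.38 for male and 0.720 for female CAST, so that Female B6 was then highest and Female CAST still lowest. The summits of all 4 lists fell within 28 bp of each other.

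The other 5 regions at Orm were weaker and were missing from Female CAST. Orm 2 (chr4:63005238-63005759), over the Orm1 start, was at 3.59 and 2.96 in male and female B6 and at 4.11 in male CAST. Orm 3 (chr4:63007623-63008122), in an intron of Orm1, was at 3.17 in Male B6 and 2.88 in Female B6 and had no peak in CAST. Orm 4 (chr4:63017971-63018360), in an intron of Orm3 and 999 bp from its start, was at 2.45 in Male B6 and 2.69 in Male CAST and had no peak in females. Orm 6, at the Orm2 start (chr4:63023148-63023399), was found in Male CAST at 2.75, and Orm 5, between Orm3 and Orm2, in Male B6 at 3.0. For comparison, the weakest 5% of peaks in Female CAST lay at or under 2.48, against 2.06 to 2.14 in the other lists, and the part of this in the missing peaks was not tested. A promoter identity of 83.6% to 86.6% among the Orm genes came with 0.85% to 2.35% of 50-base stretches repeated within 1 kb of the starts, and no 50-base stretch within the 6 regions occurs elsewhere in mm9. For stretches of 31 bases the shares were 9.2% to 11.7% at the starts and up to 7.85% within the regions (Orm 2).

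Haptoglobin binds free haemoglobin and keeps its iron from being lost. Its promoter region, Hp 4 (chr8:112102622-112103806), was at 4.07 in male and 2.67 in female B6 and 4.77 in male and 3.33 in female CAST. A stronger region, Hp 5 (chr8:112108033-112109252), lay in intergenic sequence 5.6 kb upstream and was at 6.22 and 4.44 in male and female B6 and 7.91 and 7.25 in male and female CAST. Hp 6, 7.99 kb upstream, was at 3.75 and 2.77 in the B6 lists and 4.04 and 3.55 in the CAST lists, males first. As deposited all 3 were lowest in Female B6 and highest in Male CAST, the lists with the lowest and highest medians, and once scaled this order held at Hp 4 alone: Female CAST was highest at Hp 5 and Hp 6, and Male CAST lowest at Hp 6.

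Within the gene, Hp 3 (chr8:112099171-112099849), over a coding exon of Hp, was weak, at 1.91 and 2.33 in male and female B6 and 2.41 in female CAST, and had no peak in male CAST. The highest mean enrichment of the locus belonged to Hp 1 (chr8:112089191-112090260), at the start of the neighbouring gene Dhx38 and 13.39 kb from the Hp start, at 9.81 in male and 5.29 in female B6 and 9.11 in male and 5.77 in female CAST. Hp 2, in an intron of the gene Txnl4b, was found in Male CAST at 2.28.

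Serum amyloid P component is a pentraxin that binds amyloid fibrils and bacterial surfaces and is the main acute phase pentraxin of the mouse. Its single region, Apcs 1 on chromosome 1, covers the start and part of the gene. It was at 4.96 in male and 4.61 in female B6 and 11.81 in male and 8.77 in female CAST, with summit pileups of 93, 69, 265 and 92. Both CAST values were above both B6 values. The percentile rank was 70.9 and 75.3 in the B6 lists and 97.2 and 93.2 in the CAST lists. The summit position differed by strain too: it lay 83 and 58 bp upstream of the Apcs start in Male and Female B6, and 212 and 214 bp upstream in Male and Female CAST.

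Lipocalin 2 binds bacterial siderophores and so withholds iron from bacteria, and besides hepatocytes it is a granule protein of neutrophils. Its start had a peak in 1 list: Lcn2 2 (chr2:32243207-32243477) was found in Male B6 at 2.05, with a summit pileup of 37. Its percentile rank within that list was 4.8. The region of highest mean enrichment, Lcn2 3 (chr2:32250857-32252066), covers the start of the neighbouring gene Ptges2 and was at 6.05 in male and 4.87 in female B6 and 6.42 in male and 6.55 in female CAST. Lcn2 1, at the start of 1110008P14Rik, was between 2.62 in Female B6 and 4.32 in Male B6. Among the 10 neutrophil markers, Elane had a peak within 1 kb of its start in 2 lists, at 2.11 in Male B6 and 2.0 in Male CAST, and the other 9 had none there. Within 20 kb, Elane, Ngp and Camp each had 1 region found in all 4 lists, Elane had 3 more found in fewer lists, Mpo, Ltf and Retnlg had 1 each found in fewer lists, and S100a8, S100a9, Mmp8 and Cxcr2 had none. The part of neutrophils in the Lcn2 peak was not tested. In whole liver, fewer cells of a type and less open chromatin per cell cannot be told apart.

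**Figure D2:**
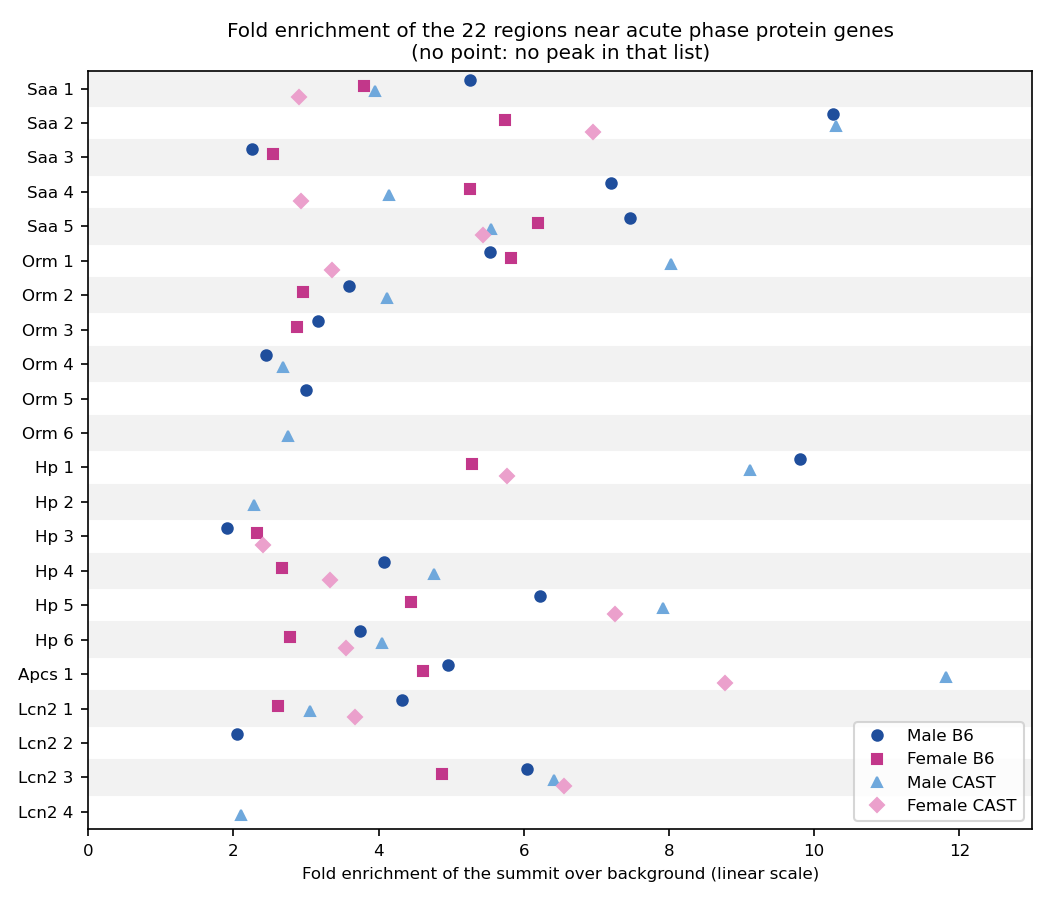
Fold enrichment of the summit over background (linear axis) at each of the 22 regions, with 1 symbol per list and no symbol where a list has no peak. Apcs 1 has both CAST symbols to the right of both B6 symbols (11.81 and 8.77 against 4.96 and 4.61), Saa 4 and Saa 5 have them to the left, and at Orm 1 the CAST symbols lie on either side of the B6 symbols.

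The comparison of the sexes asked which regions were present in 1 sex. In B6, 3 of the 19 regions found in at least 1 list (Lcn2 2, Orm 4 and Orm 5) were found in males and not in females, against 36.4% of all regions, and 0 of 19 in females and not in males (Wilson upper limit 16.8%), against 5.13%. In CAST, 5 of 18 (Lcn2 4, Orm 2, Orm 4, Orm 6 and Hp 2) were male-only, against 40.3%, and 1 of 18, Hp 3, was female-only, against 3.9%. Orm 4 was thus the 1 region of 22 found in both male lists and in neither female list, a pattern seen in 9.38% of all regions, and no region was found in both female lists and neither male list, against 0.0622%. The male lists were longer, and once all lists were reduced to 24888 peaks by q value, male-only regions numbered 0 of 16 in B6, against 14.3% of all regions of those lists, and 1 of 14 in CAST, against 14.9%. Female-only regions were then 2 of 16 in B6, against 13.1%, and 2 of 14 in CAST, against 13.6%.

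For regions found in all 4 lists, levels were compared as a scaled ratio, in which each fold enrichment was first divided by the median of its list over the 18309 regions of the series found in all 4 lists. A ratio of 1.5 or more in either direction was called. In B6 no region of the 12 was called higher in males, against 1.62% of all regions, and none higher in females, against 2.45%. In CAST 1 region, Orm 1, was called higher in males, against 1.96%, and none in females, against 2.42%. None was called for the same sex in both strains, against 0.251% of regions for males and 0.229% for females. The median ratio of male over female was 0.998 in B6 (range 0.688 to 1.34) and 1.09 in CAST (0.669 to 1.92), where the medians of all regions were 0.971 and 0.966. Without scaling the medians of all regions were 1.34 in B6 and 1.20 in CAST and those of the 12 regions 1.38 and 1.35, and regions called higher in males became 4 of 12 in B6, against 25.8% of all regions, and 2 of 12 in CAST, against 12.2%.

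Orm 1 gave ratios of opposite direction in the strains: male over female was 0.688 in B6 (95% counting interval 0.508 to 0.934) and 1.92 in CAST (1.32 to 3.05). Read by strain, CAST over B6 was 1.34 in males (1.03 to 1.76) and 0.479 in females (0.296 to 0.721). The interval excludes 1 in each case but leaves out any spread between animals, and the value rests on 29 reads at the Female CAST summit. That peak had a -log10 q of 6.13, under the stricter threshold of 15.7, so the ratios with Female CAST could not be made with that threshold, while the peaks of the other 3 lists passed it, at 35.5 or more. Of the other 11 regions, the largest male over female ratios belonged to Hp 1, at 1.34 in B6 (1.09 to 1.67) and 1.27 in CAST (0.994 to 1.67), and to Saa 2, at 1.29 (1.05 to 1.62) and 1.19 (0.925 to 1.58).

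The comparison of the strains asked in turn which regions were present in 1 strain. In males 3 of 22 regions (Lcn2 4, Orm 6 and Hp 2) were found in CAST and not in B6, against 20.9% of all regions, and 5 of 22 (Lcn2 2, Orm 3, Orm 5, Saa 3 and Hp 3) in B6 and not in CAST, against 19.1%. In females 0 of 16 were found in CAST and not in B6, against 18.3%, and 3 of 16 (Orm 2, Orm 3 and Saa 3) in B6 and not in CAST, against 22.6%. Orm 3 and Saa 3, 2 of 22 regions, were found in both B6 lists and in neither CAST list, a pattern of 3.32% of all regions, and none was found in both CAST lists and in neither B6 list, against 3.62%. Their fold enrichment was between 2.25 and 3.17, at percentile ranks between 12 and 42.8 of their lists.

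Among the 12 regions in all 4 lists, Apcs 1 was called higher in CAST, in males at 2.2 (95% counting interval 1.74 to 2.83) and in females at 1.58 (1.15 to 2.2). It was the 1 region of 12 called that way in males, against 4.86% of all regions, in females, against 4.62%, and in both, against 1.94%. As a ratio of percentile ranks the values were 1.37 and 1.24, below the call. In the other direction, Saa 4 was called higher in B6 in both sexes, the 1 region of 12 against 1.02% of all regions. Its CAST over B6 ratio was 0.530 in males (0.410 to 0.679) and 0.464 in females (0.300 to 0.684), so its B6 value was 1.89 and 2.15 times the CAST value. The Female CAST peak of Saa 4 had a -log10 q of 6.01 and was absent under the stricter threshold. Of the 22 regions Saa 4 had the highest share of repeated 50-base stretches, 3.79%. Of its 31-base stretches 6.5% were repeated, below Orm 2 at 7.85%. These shares count exact copies alone, and the part of repeated sequence in the ratio was not tested.

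Calls higher in B6 numbered 2 of 12 in males (Lcn2 1 and Saa 4), against 3.19%, and 3 of 12 in females (Orm 1, Saa 1 and Saa 4), against 3.82%. At Saa 1 the ratio in females was 0.637 with an interval that includes 1 (0.373 to 1.01), and without scaling it was 0.766 and not called. At Lcn2 1 it was 0.653 in males (0.461 to 0.906), 0.708 and not called without scaling, and 1.17 in females (0.742 to 1.81). Saa 5 was not called, and its ratios were below 1 with intervals that exclude 1, at 0.687 in males (0.559 to 0.837) and 0.729 in females (0.538 to 0.969). Saa 2, the region of highest mean enrichment at that locus, was at 0.927 (0.789 to 1.09) and 1.01 (0.738 to 1.36). At Hp 5 the ratio was 1.17 in males (1.01 to 1.37) and 1.36 in females (1.07 to 1.74), and at the Hp promoter, Hp 4, it was 1.08 (0.868 to 1.34) and 1.04 (0.722 to 1.48). The median CAST over B6 ratio was 0.954 in males and 1.02 in females, where the medians of all regions were 0.977 and 0.987.

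**Figure D3:**
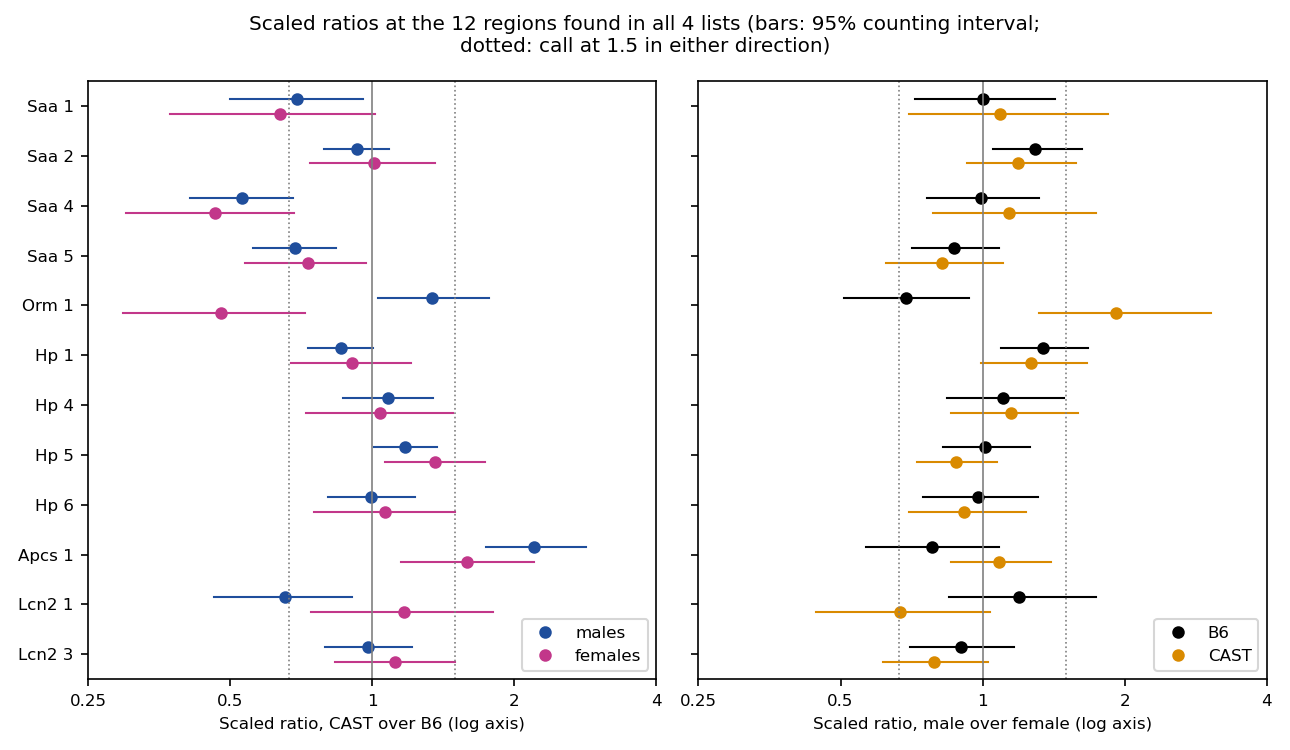
Scaled ratios of fold enrichment (log axis) at the 12 regions found in all 4 lists, CAST over B6 in males and females (left) and male over female in B6 and CAST (right), with bars for the 95% counting interval and dotted lines at the call of 1.5. In both sexes Apcs 1 lies above 1.5 (2.2 and 1.58) and Saa 4 below the other dotted line (0.530 and 0.464), and Orm 1 lies on opposite sides of 1 in each pair.

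Peak shape was compared at the 11 regions with 1 peak in each list. The summits of the lists lay within a median of 90 bp of each other, the same as over the 17304 such regions of the series, with a range of 23 bp at the Hp promoter (Hp 4) to 232 bp at Lcn2 1. At Apcs 1 the spread was 156 bp, and the summits of the same strain lay close together. The widest peak was a median of 1.49 times the narrowest, against 1.54 over all such regions. The largest factor was 2.63, at Orm 1, where the peak was 929 bp wide in Female B6 and 353 bp in Female CAST.

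**Figure D4:**
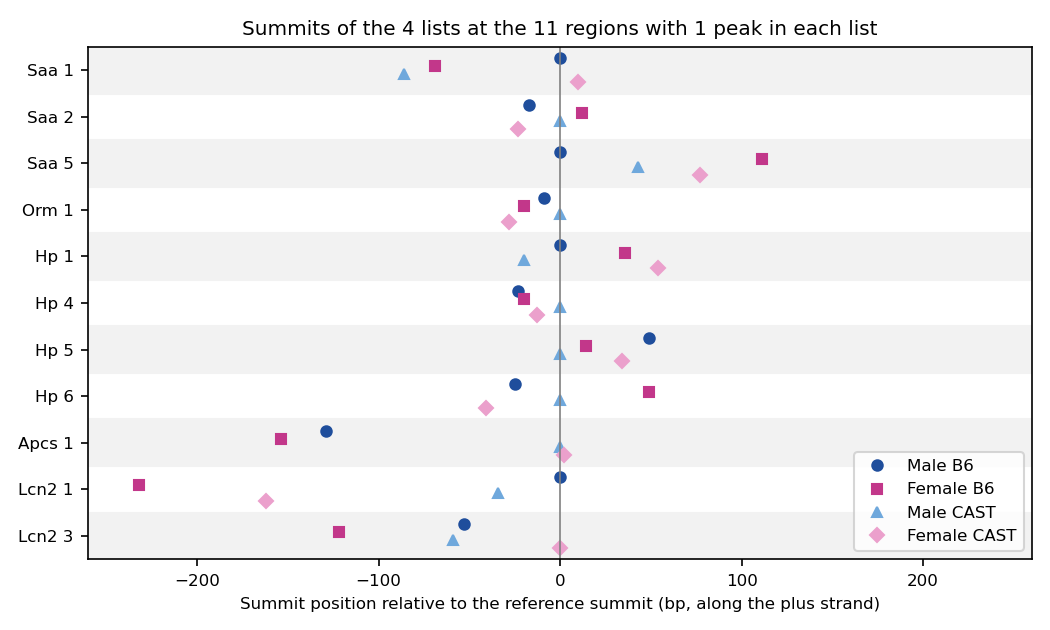
Summit positions of the 4 lists in bp from the summit of the list with the highest fold enrichment, along the plus strand, at the 11 regions with 1 peak in each list. At Apcs 1 the B6 summits lie 129 and 154 bp to the left and the CAST summits at 0 and 2 bp, whereas at Orm 1 all lie within 28 bp.

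Letters of the acute phase factors were then read at the promoters of the Saa, Orm, Hp and Lcn2 loci. C/EBP letters (TTGCNNAA) were found between 250 bases before and 50 after the start in all 9 genes of these loci, against 10.3% of 22375 promoters of protein-coding genes. In the sequences shown they begin 182 and 183 bases before the Saa1 and Saa2 starts, as TTGCACAA in both, 121, 125 and 120 bases before the Orm1, Orm3 and Orm2 starts, 99 before Saa3 and 158 before Lcn2. At Saa4 they begin 112 bases before the start, and at Hp they span it. The 9 promoters are not independent cases. Those of Saa1 and Saa2 were 95.3% identical, and those of the Orm genes 83.6% to 86.6%, with the C/EBP letters at nearly the same place. Duplicated sequence is thus counted more than once in the 9 set against 10.3%. The same limit applies to the other motifs read at these promoters. The glucocorticoid receptor letters (ACANNNTGT) were found at Orm1, Orm3 and Lcn2, against 5.83% of promoters, and were not found at Orm2. NF-kB letters (GGNNTTTCC) were found at Saa3, as GGAAATGCC on the strand shown, against 5.66%. Those of STAT, FOXA, HNF1 and HNF4 were found at none of the 9, against 7.94%, 3.11%, 0.724% and 0.456%. These matches describe letters in these windows and are not measured binding.

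Around the summits of the 21 regions at these loci, in windows of 300 bases, C/EBP letters were found in 6, against 17.2% of all regions. These were mostly promoter regions of the genes (Orm 2, Orm 6, Saa 3, Hp 4 and Lcn2 2). Orm 2 and Orm 6 lie at the starts of Orm1 and Orm2, whose promoters were 84.1% identical, so they are not independent cases. The other region was Orm 1, where TTGCACAA is centred 2 bp from the summit of the strongest list. Orm 1 also held 2 STAT matches, TTCCCAGAA and TTCCAGGAA, centred 63 bp before and 57 bp after that summit. STAT letters were found in 1 of 21 windows, that of Orm 1, against 10.2%, NF-kB letters in 3 (Lcn2 3, Hp 3 and Hp 6), against 5.68%, and glucocorticoid receptor letters in 2 (Lcn2 2 and Orm 2), against 9.35%. FOXA letters (TGTTTAC) were found in 4 distal or neighbouring regions, Saa 2, Saa 5, Hp 1 and Hp 5, against 6.59%, HNF4 letters in 1, Saa 4, against 1.67%, and HNF1 letters in none, against 2.03%. Read over the whole region instead, STAT letters were found in 5 of 21, against 19.9% of all regions, NF-kB letters in 7, against 11.9%, glucocorticoid receptor letters in 4, against 18.2%, C/EBP letters in 9, against 29.7%, and FOXA letters in 6, against 11.9%. The reference is mm9, so CAST differences in these letters were not analysed here.

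Other genes of the response were read in the same way, from lists of genes by role, and most had a promoter region in all 4 lists, against 42.4% of protein-coding genes. Of 20 other positive acute phase proteins 15 had one, including C-reactive protein (Crp), a pentraxin like Apcs, whose promoter region was at 10.9 in male and 7.72 in female B6 and 14.3 in male and 12.7 in female CAST. Of 8 negative acute phase proteins, which include albumin, 7 had one. Of 18 receptors and signalling proteins 14 had one, among them Socs3, the feedback inhibitor of STAT3 signalling. The list of transcription factors held 14 genes, of which Cebpd was not found in the annotation. Of the other 13, 12 had a promoter region in all 4 lists, among them Cebpb. The share of regions within 20 kb found in all 4 lists was 55.9% of 93 for the other positive acute phase proteins (Wilson 95% interval 45.8 to 65.6). It was 47.8% of 69 for the negative ones (36.5 to 59.4) and 33.1% of 124 for receptors and signalling (25.4 to 41.7). For the transcription factors it was 45.7% of 92 (35.9 to 55.8), beside 54.5% for the 22 regions of the 10 genes (34.7 to 73.1). The share of all regions, 35.6%, lies within the intervals for receptors and signalling and for the 10 genes. Regions called higher in CAST in both sexes numbered 1 of 52, 1 of 33, 0 of 41 and 1 of 42 of the regions in all 4 lists, against 1.94% of all regions, and those called higher in B6 in both sexes had the same counts, against 1.02%. For the 10 genes the count was 1 of 12 in each direction (Apcs 1 and Saa 4).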

How the data were processed

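DNase-seq of liver nuclei gave 16 libraries, 4 per strain and sex. Per the study's methods, the authors mapped reads to mm9 with Bowtie2, keeping uniquely mapped reads, mapped CAST reads to a CAST version of the genome and converted coordinates back, merged the libraries of each group, called peaks with MACS2 and removed blacklisted regions and peaks of duplicated reads. The deposited lists hold 1 line per peak, with its fold enrichment (a ratio of pileup to background), -log10 p, -log10 q and summit offset. The highest q in any list was 0.0500. The deposited lists give neither depth per library nor replicate spread, and the study's metrics per library were not used here.

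Peaks of the 4 lists were joined at 1 bp overlap with Python 3.11.15 (pandas 2.3.3, numpy 2.4.6, scipy 1.17.1) and checked with bedtools 2.31.1. Genes and starts were taken from GENCODE annotation of the same build, and 0 of 51482 regions lay beyond the ends of its chromosomes. Where a list had several peaks in a region, the highest was used. The summit pileup was recovered from the fold enrichment and p, and came out whole within 0.02 for 99.9% to 100% of the 24830 to 38028 peaks per list with a -log10 p under 250, over which the median pileup was also taken, which gave the exact (Clopper-Pearson) counting intervals of ratios. Shares have Wilson intervals. Motif letters were searched on both strands at 4 of the 5 loci, and the sequence of the other is not reported here. Steps were checked on simulated data. All 10 genes are named, and regions described in full are promoter regions, the strongest region of each locus, and regions that differed in the same direction in both strains or both sexes, and the values of the other regions named were added after they were seen. The genes, gene lists, motifs and comparisons were chosen with earlier results of these data known. Alternatives were windows of 10 and 50 kb, other joining rules, a stricter threshold, lists of equal size, other scalings and another call.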

Additional observations from a re-analysis of the deposited data

Results flagged for a closer look

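The region 5.69 kb upstream of Orm1 (Orm 1) is given here because its ratios took opposite directions in the groups with counting intervals that exclude 1 on either side. Lcn2 1 also took opposite directions in both pairs of ratios, at 1.20 and 0.669 for male over female and 0.653 and 1.17 for CAST over B6, but 3 of its 4 intervals include 1. The scaled ratio of male over female was 0.688 in B6 and 1.92 in CAST, and that of CAST over B6 was 1.34 in males and 0.479 in females. With 1 merged list per group the difference between these ratios was not tested. The low value is that of Female CAST, the list with the lowest background (7.94 reads, against 13.93 to 15.35 in the others), where the summit pileup was 29 and the peak 353 bp wide, and the part of depth in it was not tested.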

How the results depend on the processing

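No paired analysis was possible because each group is 1 list of merged libraries, and for the same reason no library could be left out. Of 172 alternative values of 26 results, 123 stayed within 1.5 times the count or, for a median ratio, between the ordered ratios of the regions that bound it. With a window of 10 kb, with peaks within 500 bp joined, and with the mean of a list's peaks in a region, none of the results moved.

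Shares over all regions under the same setting follow counts of regions in all 4 lists, in 1 sex or strain only, or called, but not counts per list. With a window of 50 kb, where these shares are those of the 20 kb window, Male B6, Female B6, Male CAST and Female CAST had 33, 28, 32 and 26 regions, and 23 of 39 were in all 4 lists (35.6%). There 5 of 33 were male-only in B6 (36.4%), 6 of 39 CAST-only in males (20.9%) and 2 of 30 in females (18.3%), and of 23 regions 1 was called higher in female than male CAST (2.42%) and 2 higher in CAST males than B6 males (4.86%). At the stricter threshold (-log10 q of 15.7, the median of all peaks pooled), Female B6 had 8 regions, Female CAST 7, and 6 of 13 were in all 4 lists (34.1%). At that threshold 5 of 13 were male-only in B6 (46.5%), 0 of 12 female-only in CAST (0.146%), 0 of 13 CAST-only (18.4%) and 1 of 13 B6-only in males (13.4%), and 1 of 9 CAST-only in females (16%). Among the 6 regions left to compare, 0 were called higher in male CAST than female CAST (0.555%) or higher in B6 in males (1.09%) or females (1.42%). With lists of equal size by -log10 q, sex-only regions numbered 0 male and 2 female of 16 in B6 (14.3% and 13.1%) and 1 male and 2 female of 14 in CAST (14.9% and 13.6%), and strain-only regions in males 0 in CAST and 2 in B6 of 14 (16.1% each). By fold enrichment these were 1 and 2 of 17 (15.4% and 14.2%), 1 and 2 of 14 (16.1% and 14.6%), and 0 and 3 of 15 (16.7% each). With 50% overlap of both peaks required, 2 of 21 regions were female-only in B6 (10.5%), 3 of 20 female-only in CAST (9.35%) and 1 of 18 CAST-only in females (22%).

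Without scaling, the median ratio was 1.38 for male over female in B6, 1.35 in CAST and 1.23 for CAST over B6 in females. Of 12 regions, 4 were then called higher in B6 males (25.8%) and 2 in CAST males (12.2%) than in females, 1 higher in B6 than CAST males (1.73%) and 2 higher in CAST than B6 females (14.9%). As ratios of percentile ranks, 3 and 4 regions were called higher in males in B6 and CAST (20.5% and 25.5%), and 0 higher in CAST among males (5.64%). With the call at 2, there were 0 higher in CAST males than females (0.137%), 0 higher in B6 among males (0.382%) and 0 higher in CAST among females (0.71%). Reading motifs over the whole region in place of 300 bases raised the counts for STAT from 1 to 5, NF-kB from 3 to 7 and the glucocorticoid receptor from 2 to 4. With 31-base stretches the repeated share within 1 kb of the start was 37.3% at Saa1, 35.6% at Saa2, 8.35% at Saa4 and 9.2% to 11.7% at the Orm genes. A list without a peak may hold signal under its threshold, and counting intervals leave out the spread between animals, so differences between groups of mice were not shown.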
